A study of Mus musculus with 6 samples.

Results

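The 9 genes described here encode enzymes that write, copy or remove DNA methylation in mouse cells, or proteins that help them. These genes are Tet1, Tet2, Tet3, Dnmt1, Dnmt3a, Dnmt3b, Dnmt3l, Uhrf1 and Tdg. They were taken as a named gene family, 9 of the 21900 protein-coding genes in the annotation. A target peak was assigned to one of them when its midpoint lay within the span of the gene in the RefSeq annotation of GRCm38, the assembly also known as mm10. By this rule 27 of the 3292 listed peaks (0.82%) belonged to the family, and all 27 lay in 3 of its genes, with 14 peaks in Tet1, 8 in Tet2 and 5 in Dnmt1. Tet3, Dnmt3a, Dnmt3b, Dnmt3l, Uhrf1 and Tdg had 0 listed peaks.

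The peaks came from an experiment on AGO2, the Argonaute protein that holds microRNAs (miRNAs) and, through them, target RNAs. Every library was made from mouse embryonic stem cells of the E14 line carrying Spy3-Ago2, grown in medium with serum and LIF. The 2 target libraries and the 2 miRNA libraries held RNA recovered with Spy3-AGO2 on a SpyCatcher3 resin, and the 2 input libraries held RNA of the whole lysate, so the tag and the culture were common to all groups. Cells without the tag were not analysed here. Whether the line is 1 clone, and whether input background was removed from the peaks, are details not given in the sources used here. Listed peaks are therefore not shown to be sites of AGO2. The peaks were 1 list for the whole series, with no value per replicate and a score of 0 for each of the 3292 peaks. No replicate spread, height or test can therefore be given for any peak. More peaks on a gene may come from more of its RNA in the cell as well as from more AGO2 on each molecule, and the list cannot tell these apart.

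The identity of the cells was checked on the miRNA libraries, which held 12562727 counts in replicate 1 and 22908172 in replicate 2. The 5 miRNAs chosen as stem cell markers, all from the miR-290/miR-295 cluster, summed to 31.0% and 31.3% of the counts, most of it miR-290a-5p at 24.1% and 23.5%. The 10 chosen as markers of other cell types summed to 1.03% and 1.71%, most of it miR-124-3p, a neuronal miRNA, at 0.899% and 1.57%. In both libraries this was more than the stem cell marker miR-294-3p, with 0.550% and 0.485%, and in replicate 2 more than miR-292a-3p, with 1.58% and 1.26%. All of these markers had at least 1 count in both libraries.

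DNA methylation is the addition of a methyl group to cytosine, mostly where a guanine follows, and it generally goes with silenced genes and repeats. DNMT3A and DNMT3B place new marks, helped by DNMT3L, which has no catalytic activity of its own. DNMT1 copies the marks after DNA replication, brought to newly copied DNA by UHRF1. TET1, TET2 and TET3 oxidise the methyl group, and TDG cuts out the oxidised bases so that repair can restore plain cytosine. In mouse embryonic stem cells TET1 and TET2 are the main TET enzymes, while TET3 is best known from the egg and the early zygote.

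Several miRNAs are known from other cell types to repress these genes, among them the miR-29 family for DNMT3A, DNMT3B and TET genes, miR-22 and miR-26 for TET genes, miR-148 and miR-152 for DNMT genes, miR-101 and miR-143 for DNMT3A, and miR-185, miR-342 and miR-126 for DNMT1. A list of 15 such mature miRNAs was used here. Their sequences are shown because the seed, bases 2 to 8, sets which RNAs a miRNA pairs with, and shared seeds show which of them address the same sites. RefSeq, on GRCm38.p6, gave the mature sequence of 13 of the 15, all but miR-143-3p and miR-185-5p, with 8 different seeds. Capitals mark the seed:
miR-29a-3p: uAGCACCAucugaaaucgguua
miR-29b-3p: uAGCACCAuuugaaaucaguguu
miR-29c-3p: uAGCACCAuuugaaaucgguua
miR-26a-5p: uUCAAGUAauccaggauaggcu
miR-26b-5p: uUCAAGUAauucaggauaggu
miR-148a-3p: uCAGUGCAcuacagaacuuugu
miR-148b-3p: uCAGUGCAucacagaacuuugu
miR-152-3p: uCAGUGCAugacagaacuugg
miR-101a-3p: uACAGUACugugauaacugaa
miR-101b-3p: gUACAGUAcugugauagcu
miR-22-3p: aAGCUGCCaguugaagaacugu
miR-342-3p: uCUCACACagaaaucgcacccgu
miR-126a-3p: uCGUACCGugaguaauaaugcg
The 3 miR-29 members share a seed, as do the 2 miR-26 members and the 3 members of miR-148 and miR-152. miR-101a-3p and miR-101b-3p do not share one in this table, because the listed miR-101b-3p starts 1 base earlier.

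Of the 9 genes, 3 had at least 1 listed peak, beside 8.33% of all protein-coding genes (1824 of 21900). The same 3 had at least 5 peaks, beside 0.443% of all protein-coding genes (97 of 21900). The family was picked with the peak counts of these genes already known, so these counts describe it and are not a test. Among the 1824 genes with a peak the median was 1 peak. Of these genes 3 had more peaks than Tet1, 20 had more than Tet2 and 56 had more than Dnmt1. The Tet1 count includes 3 peaks that also lie in another gene, described below. Without those 3 Tet1 had 11 peaks, and further genes with 12 or 13 peaks had more. By role, the oxidising enzymes held 22 of the 27 peaks and the methyltransferases and their cofactor the remaining 5. No listed peak lay in the de novo methyltransferase genes, in the gene that guides maintenance or in the glycosylase gene.

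**Figure D1:**
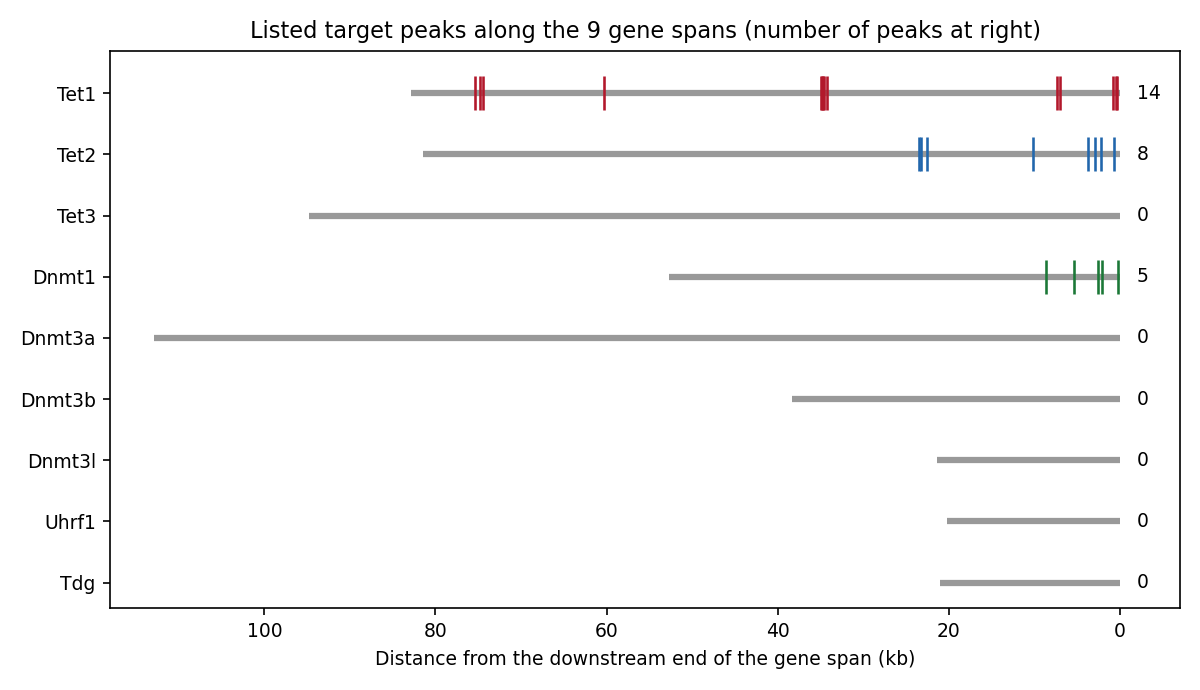
Listed target peaks (vertical ticks, drawn at their midpoints) along the RefSeq spans of the 9 genes (grey bars), with the distance from the downstream end of the span in kb on the horizontal axis. Peaks in Tet1 reach from the downstream end to 75.4 kb upstream of it, those in Tet2 stop at 23.5 kb, those in Dnmt1 at 8.69 kb, and 6 spans are empty.

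Tet1, which encodes the most studied TET enzyme of embryonic stem cells, spans 82.9 kb on the minus strand of chromosome 10 (62804570 to 62887469). Its 14 peaks all lay on the minus strand, the strand of the gene. They fell into 5 groups when peaks with no more than 2000 nt between them were joined, a distance chosen after the peaks were seen. The group nearest the downstream end held 3 peaks between 62804759 and 62805424, with midpoints 288.5, 477.5 and 827 nt from the end of the span. The next held 2 peaks between 62811558 and 62812067, with midpoints 7046 and 7313.5 nt from the end and 25 nt between the peaks.

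The middle of the gene carried the densest group. It held 5 peaks within 812 nt, between 62838748 and 62839559, at 57.8% to 58.7% of the way along the span from its upstream end. The stretches between these neighbours were 352, 27, 39 and 67 nt long. A lone peak followed at 27.3% of the span (62864811 to 62864858). The last group held 3 peaks between 62879008 and 62880086, at 9.04% to 10.2% of the span, which puts them 74462 to 75407.5 nt from the downstream end. These 3 peaks also lay within the span of Gm51805, a long noncoding RNA gene that overlaps the upstream part of Tet1. The strand of Gm51805 was not used here, so the 3 peaks cannot be assigned to Tet1 alone; without them Tet1 had 11 peaks.

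Tet1 peaks were set against peaks in general by their distance from the downstream end. Of the 14, 3 lay within 2000 nt of that end, while 36.0% of the 3070 peaks lying in exactly 1 nuclear protein-coding gene did. That share was not matched for span length, and 2000 nt is a larger part of a shorter span than of the 82.9 kb of Tet1. The last 10% of the span held 5 of the 14, beside 41.6% of those 3070 peaks, and the first 20% held 3, beside 7.33%. Without the 3 peaks shared with Gm51805, which are those in the first 20%, 3 of 11 (27.3%) lay within 2000 nt of the end and 5 of 11 (45.5%) in the last 10%, the latter above the 41.6% of all peaks. The mean position was 59.1% for Tet1, whereas it was 72.6% over the 3070 peaks, and 72.6% for Tet1 without the 3 peaks shared with Gm51805. The lower mean thus rested on those 3 peaks. Among the 97 genes with at least 5 peaks, 17 had a lower mean position than Tet1, and the median of the 97 was 72.1%. Positions were measured on spans that include introns, and exons were not used here.

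Tet1 had the largest summed peak width of the 1824 genes with a peak. Its 14 peaks covered 1511 nt, or 1.82% of its span, with a mean of 108 nt a peak. Fn1, the fibronectin gene, followed with 1319 nt in 23 peaks, and Plxna1, a plexin receptor gene, with 1304 nt in 8; both genes were chosen for mention after seeing their values. The median was 79.5 nt over all genes with a peak and 442 nt over the 97 genes with at least 5. Without the 3 peaks shared with Gm51805 Tet1 covered 1161 nt, and without its widest peak 1143 nt. Either sum would rank it in place 4 if every other gene kept all of its peaks. The other genes were not reduced in the same way, so these ranks do not show how firm the first place is.

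The widths of the Tet1 peaks reached from 25 to 368 nt with a median of 69 nt. The widest, at 62811700 to 62812067, was the fifth widest of the whole list, which ran from 15 to 541 nt. In all, 5 of the 14 were at least 100 nt wide, beside 16.8% of all 3292 peaks, and they lay in 4 of the 5 groups. No gene had more peaks of that width, and 3 other genes had as many. Without the 3 peaks shared with Gm51805, Tet1 had 4 peaks of that width, fewer than the 5 in each of those 3 genes. The narrowest, of 25 nt, sat in the middle group.

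**Figure D2:**
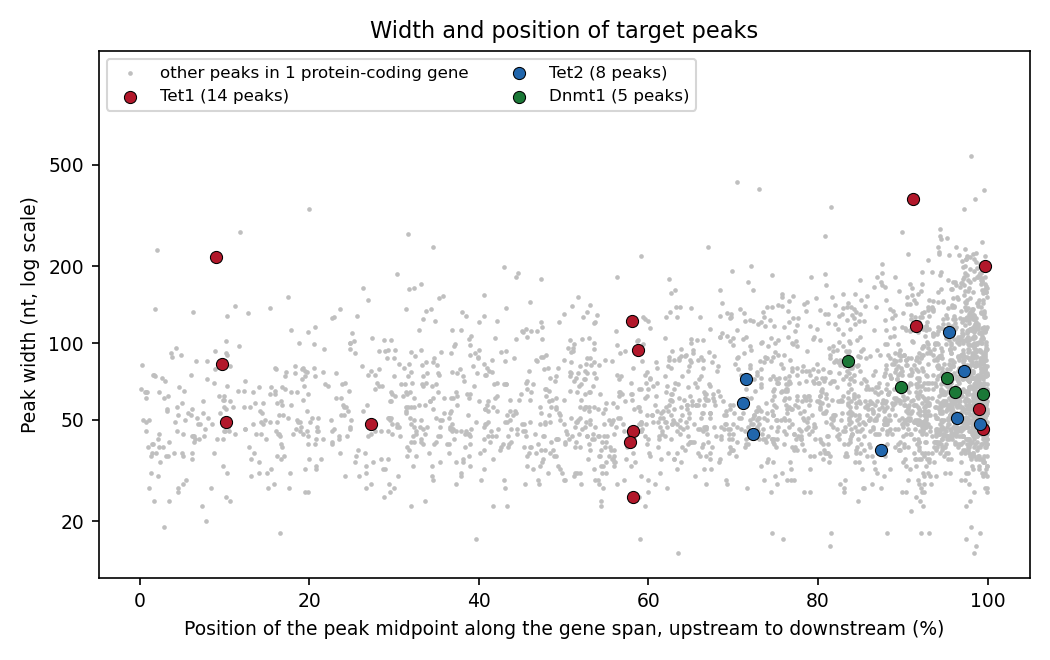
Width of each peak in nt (log scale) against the position of its midpoint along the gene span in percent, from the upstream end (0) to the downstream end (100). Grey points are the 3070 peaks in exactly 1 nuclear protein-coding gene, with those of Tet1, Tet2 and Dnmt1 in colour; Tet1 reaches 368 nt and has peaks from 9.04% to 99.7% of its span, while Dnmt1 stays between 63 and 85 nt.

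Tet2, which encodes the TET enzyme without the CXXC domain that binds DNA in TET1, spans 81.5 kb on the minus strand of chromosome 3 (133463677 to 133545136), nearly the length of Tet1. Its 8 peaks lay on the strand of the gene and formed 3 groups. The first held 4 peaks between 133464358 and 133467421, with midpoints 704.5, 2231.5, 2942 and 3689.5 nt from the downstream end. A single peak of 38 nt lay 10197.5 nt from the end (133473856 to 133473893), and a group of 3 lay between 133486206 and 133487198, at 71.2% to 72.3% of the span. No listed peak lay farther upstream, whereas 4 Tet1 peaks lay in the upstream 50% of its span, of which 3 are those shared with Gm51805. The mean position in Tet2 was 86.3%.

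Tet2 peaks were narrower than those of Tet1 in the median, at 54.5 nt against 69 nt, but the ranges of 38 to 110 nt and 25 to 368 nt overlapped. Only 1 of the 8, the peak of 110 nt at 133467312 to 133467421, reached 100 nt. The 8 peaks covered 499 nt, which placed Tet2 at rank 47 of the 1824 genes by summed width. Neighbouring Tet2 peaks were also farther apart, with a median of 747.5 nt between midpoints against 359 nt in Tet1. Both lay below the median of 1547 nt over peaks in exactly 1 nuclear protein-coding gene, where the quartiles were 289 and 7773.5 nt. Peaks of 1 gene share their RNA and are not replicates, so these differences were not tested.

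Dnmt1, the maintenance methyltransferase gene, spans 52.7 kb on the minus strand of chromosome 9 (20907206 to 20959888). Its 5 peaks were on the strand of the gene and all lay at 83.5% of the span or beyond, from 267 to 8691 nt upstream of the end. In order from the downstream end they covered 20907442 to 20907504, 20909221 to 20909284, 20909692 to 20909764, 20912573 to 20912639 and 20915855 to 20915939. These peaks were even in width, at 63, 64, 73, 67 and 85 nt, all above the median of 58 nt over the whole list and below its upper quartile of 84 nt but for the last. Neighbouring midpoints were 475.5 to 3291 nt apart, with a median of 2328.75 nt, wider than in Tet1 and Tet2. That median lay within the quartiles of 289 and 7773.5 nt given above for peaks in general. The mean position was 92.8%, and 1 of the 5 lay within 2000 nt of the end, the next at 2046.5 nt. The gene of the miRNA Mir7081 lies within the Dnmt1 span, and no peak overlapped it.

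Over the 27 peaks of the family the median width was 64 nt, close to the 58 nt of all peaks, with quartiles of 48 and 89.5 nt against 45 and 84 nt. At least 100 nt was reached by 6 of the 27, of which 5 were in Tet1. Within 2000 nt of the downstream end lay 5 of the 27 (18.5%, against 36.0% of all peaks), namely 3 of Tet1 and 1 each of Tet2 and Dnmt1, and each of these genes had at least 1 there. The last 10% of the span held 12 of the 27 (44.4%, against 41.6%). Between neighbouring peaks 11 of 24 gaps were at most 500 nt long, of which 9 were in Tet1. That stands beside 35.1% of the 1353 gaps between peaks lying in exactly 1 nuclear protein-coding gene. At most 50 nt separated 3 of the 24, all in Tet1, beside 15.7%. None of the 16 promoter windows that RefSeq start sites gave for the 9 genes, from 250 bases before to 50 after a start, overlapped a listed peak. Of all 32851 such windows, 21 did (0.0639%).

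**Figure D3:**
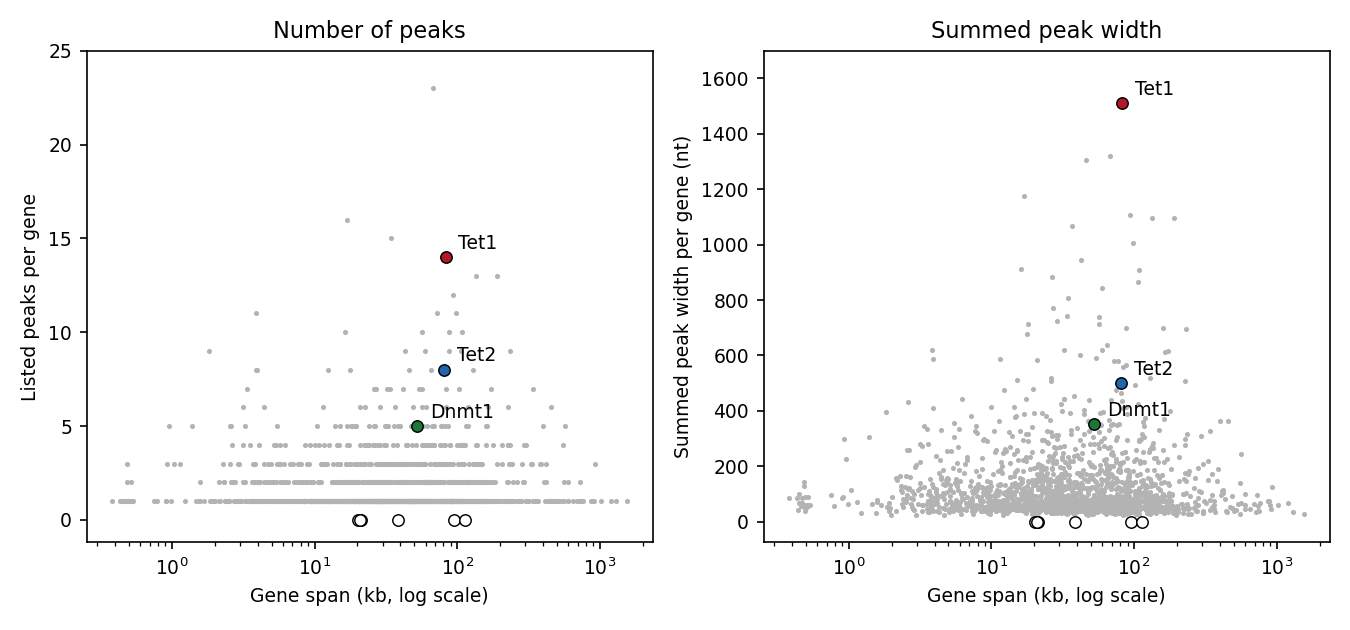
Number of listed peaks (left) and summed peak width in nt (right) of each of the 1824 protein-coding genes with a peak (grey), against the gene span in kb (log scale). Tet1, Tet2 and Dnmt1 are in colour, and white circles at 0 are the 6 members without a peak. Tet1 has the highest summed width, 1511 nt, while 3 genes have more peaks, both counted with the 3 peaks shared with Gm51805.

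The spans of the genes with and without peaks overlapped in length. Dnmt3a, with 113 kb, and Tet3, with 94.8 kb, are longer than Tet1 and had 0 peaks. Dnmt3b spans 38.3 kb, and Dnmt3l, Uhrf1 and Tdg span 21.3, 20.2 and 21.0 kb. These are all shorter than Dnmt1, with 52.7 kb the shortest span that held a peak. Whether span length bears on having a peak was not tested. Per 10 kb of span Tet1 had 1.69 peaks, Tet2 0.98 and Dnmt1 0.95, against a median of 0.40 over the 1824 genes with a peak. This put them at the percentiles 84.3, 73.7 and 73.0. The value of Tet1 includes the 3 peaks shared with Gm51805 and was not recomputed without them.

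The 6 genes without a peak were also examined for peaks just outside their spans. The closest listed peak on the gene's own strand was 249081 nt from Dnmt3b, 290101 nt from Uhrf1, 298974 nt from Dnmt3a, 363690 nt from Dnmt3l, 943819 nt from Tdg and 1597816 nt from Tet3. On either strand the closest was 4114 nt from Tet3, on the plus strand within Bola3, and 24219 nt from Uhrf1, on the minus strand within Plin3. Extending the 6 spans by 2000 nt at both ends added no peak to any of them. Absence from the list does not show that AGO2 was absent from these RNAs, and neither their level in the cells nor their read counts in the target and input libraries were analysed here.

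The numbers in the names of the listed peaks added a measure that the positions alone did not give. On each chromosome and strand these numbers increased with position throughout the list, and they reached 30438, of which the listed 3292 are 10.8%. What the other numbers stood for is a point not given in the sources used here, and no explanation of them was tested. From the first to the last Tet1 peak the numbers ran from 17016 to 17106, a range of 91 of which 14 (15.4%) were listed and 77 were not. In Tet2 8 of 25 numbers were listed (32.0%) and in Dnmt1 5 of 14 (35.7%). Among the 97 genes with at least 5 peaks the median range was 23 numbers with 28.75% listed, and Tet1 had the second longest range after Huwe1, a ubiquitin ligase gene with 111. Without the 3 peaks shared with Gm51805 the Tet1 range was 72, which would rank it in place 4 with the other genes left as they were.

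The unlisted numbers around the 6 genes without a peak were counted in the same way. Between the listed peaks that flank Dnmt3a on its strand, 1146 kb apart, 6 numbers were unlisted. There were 17 around Dnmt3l, 18 around Dnmt3b, 24 around Uhrf1 and 31 each around Tet3 and Tdg, over flanking distances of 1063 to 12187 kb. These stretches are far longer than the genes, whereas the 77 unlisted numbers of Tet1 fell between its own first and last peak, the 17 of Tet2 and the 9 of Dnmt1 likewise. Whether any unlisted number stood for a peak on these genes was not tested.

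The genes whose peaks were placed most like those of Tet1 were found by the largest difference between the cumulative position curves (the Kolmogorov-Smirnov distance), over the other 93 genes with at least 5 peaks in that gene alone. Prpf8, a core splicing factor gene, had the smallest distance at 0.21 with 6 peaks, followed by Mybbp1a, a nucleolar protein gene, at 0.24 with 5, and Huwe1 at 0.26 with 13. Their peaks reached from 16.5% to 99.5%, from 20.7% to 92.6% and from 4.42% to 97.9% of their spans, against 9.04% to 99.7% in Tet1. The distances used all 14 Tet1 peaks, including the 3 shared with Gm51805. Without those 3 the Tet1 peaks began at 27.3% of the span, and the distances were not recomputed. The spans of Prpf8 (22.7 kb) and Mybbp1a (10.4 kb) are much shorter than that of Tet1, and with 5 or 6 peaks the distance is coarse.

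Around the member genes, 47 further genes of the pathway were listed by role, and all 47 were found in the annotation. Of these, 14 (29.8%) had at least 1 peak, 36 peaks by midpoint (35 without 1 in Mat2a that lay on the opposite strand), beside 8.33% of all protein-coding genes, and 2 had at least 5, beside 0.443%. The median of the 47 was 0 peaks. The lists were chosen with earlier results of these data known, so these counts describe them and are not a test. RNA levels of the listed genes were not analysed here. Among 7 partners of maintenance methylation, 4 had a peak: Cdca7, a cofactor of the remodeller HELLS, had 2, while Hells itself, Uhrf2, a paralog of Uhrf1, and Usp7, a deubiquitinase that binds DNMT1 and UHRF1, had 1 each. Pcna, Dppa3 and Lig1 had 0. The peaks of Uhrf2 and Hells lay in the middle of their spans, at 42.8% and 41.1%.

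Partners and recruiters of TET proteins had a peak in 4 of 7 genes, 12 peaks in all. Hcfc1, a chromatin adaptor that is processed by OGT, had 5, from 43.0% to 97.7% of its span and from 27 to 179 nt wide. Qser1, whose product shields DNA from de novo methylation together with TET1, had 4, all between 808.5 and 2158 nt from its downstream end. Ogt, the glycosyltransferase that binds TET proteins, had 2 and Sin3a, a corepressor gene, had 1, all 3 of them at least 20967 nt from the downstream end. Cxxc4, Cxxc5 and Prdm14 had 0.

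Genes that link histone marks to DNA methylation had a peak in 3 of 9, with 10 in Nsd1, a histone methyltransferase gene, and 1 each in Ehmt2 and Kdm1b. The Nsd1 peaks reached from 33.9% to 98.6% of its span of 109 kb. Of the 4 genes of cofactor metabolism, Mat2a, which makes the methyl donor, had 3 peaks in its span by midpoint, 2 of them within 2000 nt of its end. The third lay on the opposite strand and also in the span of another protein-coding gene, so its assignment to Mat2a is uncertain. Readers of methylated DNA had a peak in 1 of 8, Zbtb38 with 2 peaks at 1433.5 and 1546 nt from its end, and base excision repair and Gadd45 genes in 1 of 12, Parp1 with 2. Mbd1, Mbd2, Mbd3 and Mbd4 had 0, as did the 3 Gadd45 genes. The shares of these last lists, 12.5% and 8.33%, stood near the background of 8.33%.

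The miRNAs shown above were present in AGO2 at small shares. Together the 15 made up 2.17% of the counts in replicate 1 and 2.32% in replicate 2, a mean of 2.25% ± 0.11 (SD over n = 2 libraries, as for all shares that follow). miR-26a-5p led with 0.848% ± 0.031 and stood at rank 18 and 20 of the 1978 miRNAs. The 2 miR-26 members together held 0.931% and 0.884%, and the 3 miR-29 members 0.517% and 0.611%. miR-29a-3p was the most abundant of that family with 0.328% ± 0.029, followed by miR-29b-3p with 0.168% ± 0.031 and miR-29c-3p with 0.0672% ± 0.0059. The difference between miR-26 and miR-29 had the same direction in both libraries and exceeded the SD of either.

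miR-342-3p held 0.244% ± 0.025 and miR-101a-3p 0.235% ± 0.043, a difference within their spread and with opposite order in the replicates. miR-101b-3p, with its shifted seed, held 0.0177% ± 0.0026. The miR-148 and miR-152 members summed to 0.107% ± 0.0030, led by miR-148a-3p with 0.0598%. miR-185-5p held 0.0954% ± 0.00056 and miR-126a-3p 0.0452% ± 0.0059. The lowest were miR-148b-3p at 0.0152%, miR-143-3p at 0.0152% and miR-22-3p at 0.0150%, which did not differ beyond their spread. Between replicates the ratio of shares lay between 0.676, for miR-152-3p, and 1.30, for miR-101a-3p, and 9 of the 15 were higher in replicate 2. The 95% Wilson intervals, such as 0.0148% to 0.0162% for miR-22-3p in replicate 1, cover counting error only. For 12 of the 15 the intervals of the replicates did not overlap. No peak was matched to a miRNA, since the bases under the peaks were not analysed here.

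**Figure D4:**
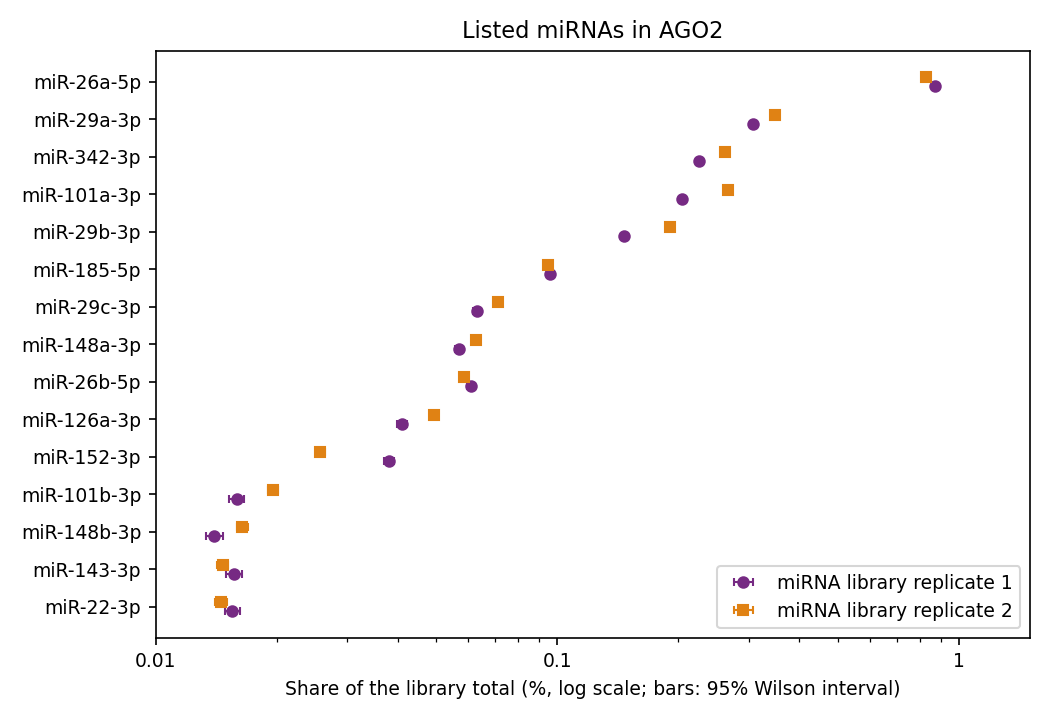
Share of each of the 15 listed miRNAs in the counts of the 2 miRNA libraries (percent, log scale), with 95% Wilson intervals as bars. miR-26a-5p stands highest at 0.871% and 0.826%, and miR-22-3p is among the lowest at 0.0155% and 0.0146%.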

How the data were processed

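AGO2-bound RNA of an E14 mouse embryonic stem cell line was sequenced as 2 miRNA and 2 target libraries, beside 2 input libraries. The authors deposited, for both miRNA libraries, raw counts of each mature miRNA, and 1 BED list of target peaks for the series, whose score column is 0 throughout, per the file itself. Tools listed in the submitters' processing notes, without roles, are deepTools 3.1.3, STAR 2.5.2a, cutadapt 2.10, Bowtie2 2.4.2, UMI-tools and DESeq2 1.36.0, with the mm10 build. The peak caller, its threshold, the use of input and any collapsing of duplicates are details not given in the sources used here, and each would change the number of peaks. The labels do not say whether replicates were separate cultures.

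Peaks were assigned by midpoint to RefSeq spans of GRCm38.p6, with coordinates counted from 1. Position was measured along the strand of the gene where the promoter table gave it and otherwise along that of the peak; for 2440 of the 2464 peaks with a known gene strand both were the same. The assignment was checked on simulated peaks placed within gene spans on the strand of the gene, where 1000 of 1000 were recovered. Peaks on the opposite strand and genes of unknown strand were not simulated, so this checks the calculation only. Shares were counts over the library total, with a mean, SD and 95% Wilson interval. Beyond the members, the text names listed genes with a peak, all listed miRNAs and the 3 genes most like Tet1; genes named with 0 peaks, Fn1, Plxna1, Bola3, Plin3, Gm51805 and Mir7081 were named after their values were seen. Members and lists were chosen with earlier results of these data known. Some listed genes are counted with their lists but not reported by name. Python 3.11.15, numpy 2.4.6, pandas 2.3.3, scipy 1.17.1 and matplotlib 3.10.9 were used.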

Additional observations from a re-analysis of the deposited data

How the results depend on the processing

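Of 122 recomputed values, 102 were unchanged to 3 significant digits, within 1.5 times (counts and summed widths) or within 1 SD (the miRNA share). All 20 that moved were among the 60 values for the main results, of which 40 were unchanged. The other values were counts and summed widths of single genes, among them the genes without a peak, which stayed at 0. Requiring whole peaks within the span, or peaks of at least 30 nt, could not add a peak to those genes. All 15 listed miRNAs had at least 10 counts in each library, so requiring this could not change their share. The tally of unchanged values thus includes some that could not move. The number of members with at least 1 peak, and with at least 5, was 3 under each alternative run. Merging peaks at most 50 nt apart gave 24 peaks, 0.457 peaks per 10 kb over the 9 spans (0.514 with the peaks as listed), a mean position of 74.0%, a median width of 65.5 nt and a median spacing of 747.5 nt in place of 704.75 nt. Only peaks of at least 30 nt gave 0.495 per 10 kb, 74.0%, 65.5 nt and 710.5 nt. Spans extended by 2000 nt gave 0.481 per 10 kb, a mean position of 72.2% and 0 peaks within 2000 nt of the moved end, which follows from moving it. The mean position was 73.4%, but 79.4% as a mean over members and 88.8% without Tet1. Without Tet1 the median spacing was 1527 nt and 2 peaks lay within 2000 nt of the end. Over all members a window of 5000 nt held 10 in place of 5. Without the 3 peaks shared with Gm51805, chosen after seeing the data as was leaving out Tet1 for width and spacing, the mean position was 81.4%, the median width 63.5 nt and the spacing 710.5 nt. The miRNA share was 2.17% to 2.32% with either library left out, and 2.95% of a total without miR-290a-5p. With 2 libraries, leaving 1 out always moves the mean by less than 1 SD, so those 2 values could only count as unchanged. No paired analysis was possible because no result comes from a test between groups. The list limits all peak results, since it has no depth or score.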
